A study of Mus musculus with 4 samples.

Results

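Insl3, Lhcgr and Prlr encode a hormone of the testis and a pair of hormone receptors, and their transcripts were followed here in mouse testis cells. The members were chosen by name, as the rows of these 3 genes among the 18419 genes of the deposited table, over the columns of all 4 libraries. All 3 genes were found in the table, and the choice was made with earlier results of these data known.

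The cells came from the testes of male ICR mice, an outbred stock, and were measured by droplet single-cell RNA sequencing, which counts captured transcripts by their molecular tags (unique molecular identifiers, UMIs). The A0 group had neither agent and received the vehicle as its control treatment. The A10 group received alginate oligosaccharides (AOS), short sugar chains made from seaweed alginate, at 10 mg/kg. The B0 group received busulfan, an alkylating drug that kills dividing germ cells, followed by vehicle, and the BA10 group received busulfan followed by AOS at 10 mg/kg. Per the methods of the study, testes of several mice were combined in each group, the seminiferous tubules were cut into pieces and the pieces washed before digestion, and 1 library was made per group. Animals therefore cannot be told apart, no comparison between libraries has a replicate check, no test was run, and each interval below covers counting error only.

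Insulin-like 3, the product of Insl3, is a small peptide hormone of the relaxin family that Leydig cells secrete, known for guiding testis descent through its receptor Rxfp2. Lhcgr is the G protein-coupled receptor through which pituitary luteinizing hormone, by way of cyclic AMP and protein kinase A, drives steroid synthesis in Leydig cells. Prlr is the prolactin receptor, a cytokine-type receptor that signals through the kinase Jak2 and the factors Stat5a and Stat5b, and rodent Leydig cells carry it.

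The libraries held 8941 cells in A0, 9682 cells in A10, 4659 cells in B0 and 3778 cells in BA10, with 25323535 to 150812974 UMIs per library. B0 was the shallowest library per cell, with a median of 4214 UMIs against 10948 to 17989 in the others. The lowest UMI count of a kept cell was 2985 for B0, 6716 for A10, 7687 for A0 and 9013 for BA10. Cells of under 9013 UMIs are thus in the table for B0 and not for BA10. In total 374 cell barcodes occurred in more than 1 library. The table held no mitochondrial gene, so RNA quality could not be read from such genes.

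Insl3 (ENSMUSG00000079019.2 in GENCODE M21, build mm10) lies on the plus strand at chr8:71689214-71690575 and has 2 exons with 623 bases in all. Its second exon, chr8:71690172-71690575 with 404 bases, is annotated with the same coordinates as exon 25, the last exon, of a transcript of the kinase gene Jak3, whose span is chr8:71676296-71690575 on the same strand. Only the first exon, chr8:71689214-71689432 with 219 bases, belongs to Insl3 alone. Of the shared exon, 213 bases are untranslated in Insl3. The exon junction is shown because it is the step in the transcript from Insl3-only sequence, in capitals, to sequence that the Jak3 transcript also carries, in lower case:
Insl3 exon junction, chr8:71689393-71689432 joined to chr8:71690172-71690211, plus strand: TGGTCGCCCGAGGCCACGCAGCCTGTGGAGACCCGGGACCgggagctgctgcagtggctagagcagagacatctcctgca

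The chemistry reads transcripts from their 3′ end, where the annotation gives both genes one exon, so reads from this exon cannot be assigned to Insl3 or Jak3 by position alone. Jak3 was at 4.51 CPM (counts, here UMIs, scaled to a total of 1000000) in A0, 3.26 CPM in A10, 18.9 CPM in B0 and 3.14 CPM in BA10. The Jak3 level of B0 was thus above that of A0, with a log2 ratio of 1.85 with 1 CPM added, and it was lower in BA10 than in B0 by a log2 ratio of -2.27. How the counting split reads of the shared exon between both genes was not tested.

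Prlr (ENSMUSG00000005268.20) lies on the plus strand at chr15:10177238-10349180, where its span overlaps that of Gm21973 over 23801 bases. Gm21973 is no row of the table. Lhcgr (ENSMUSG00000024107.7) lies on the minus strand at chr17:88716481-88791990 and overlaps no annotated gene.

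The promoters are shown because the levels of all 3 genes were higher in B0 than in A0 and lower in BA10 than in B0. The same held for Nr5a1, a nuclear receptor that drives Leydig cell genes and is among the Leydig cell markers used below. Whether Nr5a1 acted on the 3 genes was not tested. The windows run from 250 to 39 bases before the start of transcription, from RefSeq on GRCm38.p6. AAGGTC and AGGTCA, half-sites that nuclear receptors such as Nr5a1 can bind and that overlap within AAGGTCA, were searched on both strands, and matches are in capitals:
Insl3, chr8:71689002-71689213, plus strand: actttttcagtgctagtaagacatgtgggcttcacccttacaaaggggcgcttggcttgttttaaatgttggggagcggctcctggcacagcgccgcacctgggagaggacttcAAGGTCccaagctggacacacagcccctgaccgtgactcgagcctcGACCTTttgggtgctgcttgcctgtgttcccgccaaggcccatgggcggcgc
Lhcgr, chr17:88792053-88792264, minus strand: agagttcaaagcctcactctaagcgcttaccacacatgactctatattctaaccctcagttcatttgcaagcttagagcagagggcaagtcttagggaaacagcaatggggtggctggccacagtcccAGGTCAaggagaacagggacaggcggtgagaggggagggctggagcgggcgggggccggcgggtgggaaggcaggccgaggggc
Prlr, first of 3 starts, chr15:10176988-10177199, plus strand: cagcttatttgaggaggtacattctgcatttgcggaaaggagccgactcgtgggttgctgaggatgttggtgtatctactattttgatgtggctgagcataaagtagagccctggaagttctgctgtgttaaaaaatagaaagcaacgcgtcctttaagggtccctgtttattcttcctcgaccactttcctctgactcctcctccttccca

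The Insl3 window held AAGGTC at 2 places, at base 115 on the printed strand and at base 161 on the opposite strand, where it reads GACCTT. The Lhcgr window held AGGTCA once, at base 129 on the printed strand. None of the 3 Prlr windows held either motif. Among 32851 windows of the same length, 9.20% held AAGGTC and 12.1% held AGGTCA, on either strand. The match of letters is a description and not a site. The letters TATAA, searched on both strands and found in 18.7% of all windows, were in no window of the 3 genes. The windows end 39 bases before the start, so the search cannot say whether these letters stand closer to it.

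Insl3 transcripts were rare in A0 and A10, very abundant in B0 and intermediate in BA10. The sums were 141 UMIs in A0, 206 UMIs in A10, 168087 UMIs in B0 and 11320 UMIs in BA10. As a level, this was 0.935 CPM (95% Poisson interval 0.787 to 1.10) in A0, 1.43 CPM (1.24 to 1.64) in A10, 6638 CPM (6606 to 6669) in B0 and 124 CPM (122 to 126) in BA10. No pair of these intervals overlapped, and the order of the levels was A0, A10, BA10 and B0.

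Lhcgr, the receptor for luteinizing hormone, had 13 UMIs in A0, 14 UMIs in A10, 2744 UMIs in B0 and 225 UMIs in BA10. Its level was 0.0862 CPM (0.0459 to 0.147) in A0, 0.0974 CPM (0.0533 to 0.163) in A10, 108 CPM (104 to 112) in B0 and 2.46 CPM (2.15 to 2.81) in BA10. The intervals of A0 and A10 overlapped, and those of B0 and BA10 stood apart from them and from each other.

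Prlr, the prolactin receptor, had 59 UMIs in A0, 64 UMIs in A10, 18868 UMIs in B0 and 1146 UMIs in BA10. Its level was 0.391 CPM (0.298 to 0.505) in A0, 0.445 CPM (0.343 to 0.569) in A10, 745 CPM (734 to 756) in B0 and 12.6 CPM (11.8 to 13.3) in BA10. As for Lhcgr, A0 and A10 overlapped and the other libraries did not. In such library sums, fewer cells of a type and less RNA per cell cannot be told apart.

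**Figure D1:**
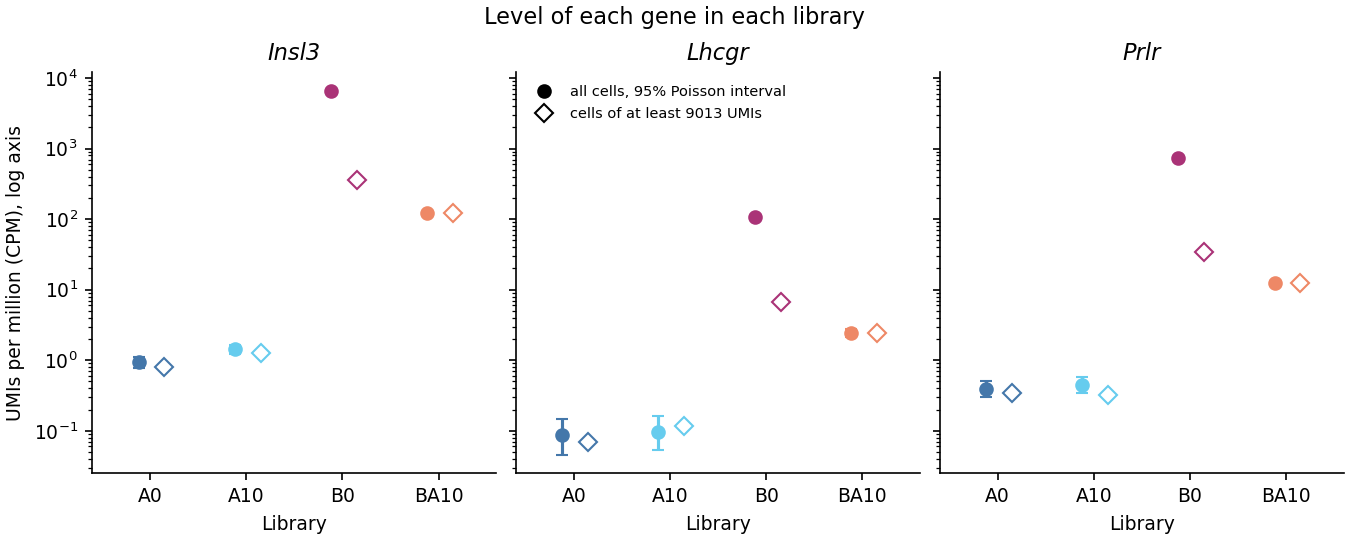
Level of Insl3, Lhcgr and Prlr in the 4 libraries, in CPM on a log axis. Filled points are all cells of a library with the 95% Poisson interval, which is smaller than the point at high levels, and open diamonds are its cells of at least 9013 UMIs, the lowest count in BA10. In each panel B0 is highest and BA10 lies between B0 and both libraries without busulfan, and the diamond of B0 lies far below its point.

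The comparison of B0 with A0 asks what differed after busulfan. All 3 genes were higher in B0 by a log2 ratio of 2 or more with 1 CPM added, where 21.6% of all genes were higher and 5.30% lower by that rule. The log2 ratio was 11.74 for Insl3, 9.07 (8.96 to 9.17) for Prlr and 6.65 (6.57 to 6.74) for Lhcgr. Without the added CPM the level of B0 was 1905-fold higher for Prlr (1476 to 2503) and 1257-fold higher for Lhcgr (734 to 2364), so the added CPM takes much from the ratio of genes that low in A0. The median log2 ratio of genes at 1 CPM or more was 0.58 in this comparison. It was -0.45 when BA10 was set against B0 and 0.36 when it was set against A0. Relative to that median, the log2 ratio of B0 over A0 was 11.16 for Insl3, 8.49 for Prlr and 6.07 for Lhcgr. In cells of at least 9013 UMIs, and without that step, it was 7.63, 4.74 and 2.85 in the same order.

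The comparison of BA10 with B0 asks what differed when AOS followed busulfan. All 3 genes were lower in BA10 by the same rule, where 18.2% of all genes were lower and 0.988% higher. The level of Insl3 was 53.5-fold lower (52.5 to 54.6) in BA10, that of Lhcgr 44.0-fold lower (38.4 to 50.6) and that of Prlr 59.4-fold lower (55.9 to 63.1).

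Against A0, BA10 was higher by a log2 ratio of 2 or more for Insl3 and Prlr and not for Lhcgr, where 1.25% of all genes were higher and 4.99% lower. The log2 ratio was 3.28 for Prlr and 1.67 for Lhcgr, whose A0 level of 0.0862 CPM lies far below the added CPM. Without the added CPM, the level of BA10 was 133-fold that of A0 for Insl3 (112 to 158), 28.6-fold for Lhcgr (16.4 to 54.5) and 32.1-fold for Prlr (24.7 to 42.4).

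The comparison of A10 with A0 asks what differed with AOS alone. None of the 3 genes passed the rule in either direction, where 0 of all genes were higher and 0.00543% were lower. The level of Insl3 in A10 was 1.53-fold that of A0 (1.23 to 1.91), the only one of the 3 ratios whose interval lay above 1. For Lhcgr the ratio was 1.13 (0.493 to 2.61), an interval that holds no change as well as changes of over 2-fold.

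B0, the library with the highest levels, was also the shallowest and had the lowest count limit. Of the B0 cells, 448 reached 9013 UMIs, and only 20 of them were among the Leydig-like cells described next. In those 448 cells Insl3 was at 355 CPM, Prlr at 34.7 CPM and Lhcgr at 6.71 CPM. These levels were still above the 124, 12.6 and 2.46 CPM of BA10, whose cells all reach the limit, but the log2 ratio of BA10 over B0 was then -1.51 for Insl3, -1.40 for Prlr and -1.15 for Lhcgr, so that none of the 3 was lower by a log2 ratio of 2. The sum of 7 Leydig cell markers (Star, Cyp11a1, Cyp17a1, Hsd3b1, Hsd3b6, Hsd17b3 and Nr5a1, all 7 detected in every library) moved the same way, from 7.43 CPM in A0 and 9.41 CPM in A10 to 8678 CPM in B0 and 304 CPM in BA10. Markers of other classes moved too. The 7 macrophage markers summed to 14.0, 11.3, 496 and 48.8 CPM in A0, A10, B0 and BA10, the 7 Sertoli cell markers to 34.6, 33.9, 907 and 142 CPM, and the 8 spermatid markers to 41777, 48461, 312 and 1227 CPM.

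Cells were clustered without the 3 genes, and clusters were named from fixed markers. The Leydig-like class held 5 cells of A0 and 8 cells of A10, against 2929 cells of B0 and 128 cells of BA10. They formed a large cluster, with 1 cell of A10, 2905 cells of B0 and 55 cells of BA10, and a small one, with 73 cells of BA10, 24 of B0, 7 of A10 and 5 of A0. The large cluster was led by Insl3, Sult1e1 and Prlr, and the small one by Serpina3a, Aqp2 and Ptgds. All 7 Leydig markers were detected in each, in at least 10% of cells. Of the 10 leading genes, 2 were Leydig markers in the large cluster and 0 in the small one. Naming used the mean marker level relative to the highest cluster. This Leydig score was 1.0 for the large cluster and 0.293 for the small one, whose next class scored 0.157. The small cluster was thus named on weaker grounds. Most Leydig-like cells of B0 and most of BA10 were thus in different clusters.

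Every Leydig-like cell of every library held an Insl3 UMI. Within these cells Insl3 was at 1068 CPM (807 to 1387) in A0, 1463 CPM (1225 to 1733) in A10, 11863 CPM (11803 to 11923) in B0 and 2957 CPM (2888 to 3026) in BA10. The few control cells had modest counts, with Insl3 UMIs of 5, 9, 12, 13 and 17 in the 5 cells of A0 and of 8, 9, 13, 14, 17, 20, 23 and 29 in the 8 cells of A10. All 5 cells of A0 were in the small cluster, where the 24 cells of B0 had 3969 CPM of Insl3. In the 20 Leydig-like cells of B0 with at least 9013 UMIs Insl3 was at 4878 CPM, so the gap to A0 was smaller among like cells.

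Prlr was at 687 CPM (481 to 951) in Leydig-like cells of A0, 572 CPM (427 to 750) in A10, 1336 CPM (1316 to 1356) in B0 and 335 CPM (312 to 359) in BA10. It had a UMI in every control Leydig-like cell, 4 to 13 UMIs in A0 and 2 to 13 UMIs in A10, in 98.6% of those of B0 and in 97.7% of those of BA10. The prolactin receptor was thus read in nearly all Leydig-like cells of each library, at a level lowest in BA10. In the small cluster alone B0 was at 351 CPM (280 to 434), below A0, and with at least 9013 UMIs a cell B0 was at 466 CPM and A0 at 650 CPM, so the order of B0 and A0 turned with the cells compared.

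Lhcgr was at 95.4 CPM (31.0 to 223) in Leydig-like cells of A0, 22.0 CPM (2.66 to 79.5) in A10, 199 CPM (191 to 207) in B0 and 61.6 CPM (52.1 to 72.4) in BA10. The value of A0 rests on 5 UMIs and that of A10 on 2 UMIs. In the small cluster B0 was at 57.8 CPM (31.6 to 96.9), below the value of A0 and inside its interval. In cells of at least 9013 UMIs B0 was at 77.1 CPM and A0, with 2 UMIs, at 44.8 CPM (5.43 to 162). A UMI of this receptor was seen in 52.8% of Leydig-like cells of B0 and in 60.9% of those of BA10. With every cell thinned to 2500 UMIs, the shares were 36.7% in B0 and 17.2% in BA10, the reverse order, which follows the level.

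**Figure D2:**
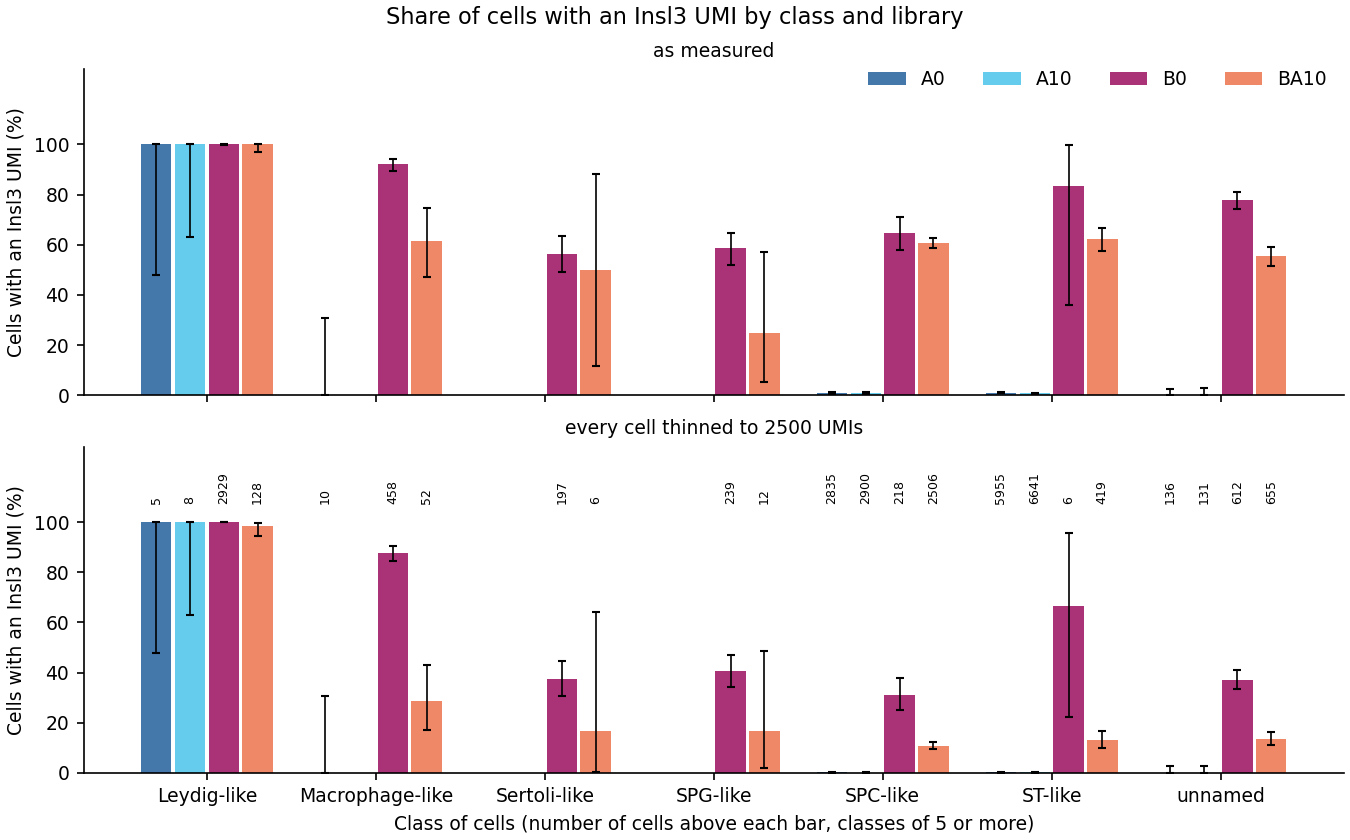
Share of cells with an Insl3 UMI in each named class and in the unnamed cells, in percent, as measured (upper panel) and with every cell thinned to 2500 UMIs (lower panel). Bars are libraries with exact 95% binomial intervals, numbers above the lower bars are cells, classes of under 5 cells are not drawn, and missing bars in A0 and A10 are such classes or shares near 0. ST-like cells are spermatids. Leydig-like cells stand at or near 100% in all libraries, while other classes reach high shares only in B0 and BA10.

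Leydig-like cells of BA10 had lower levels than those of B0 for all 3 genes. Germ cell genes were higher in these same cells of BA10, with Insl6 at 508 CPM against 39.8 CPM in B0 and Crem at 205 CPM against 28.8 CPM, and their part in the lower levels was not tested. The log2 ratio was -2.0 (-2.04 to -1.97) for Insl3, -1.67 (-1.91 to -1.44) for Lhcgr and -1.99 (-2.09 to -1.89) for Prlr. In the large cluster alone, Insl3 was at 12017 CPM in B0 and 5916 CPM in BA10, Prlr at 1355 and 763 CPM, and Lhcgr at 202 and 139 CPM. There the log2 ratios were -1.02, -0.83 and -0.53 for Insl3, Prlr and Lhcgr, a comparison added after the clusters were seen. In Leydig-like cells of at least 9013 UMIs, 20 in B0 and 128 in BA10, the log2 ratios were -0.72, -0.48 and -0.32 in the same order of genes. The direction held in each of these sets and the size fell. With both limits applied, the large cluster and at least 9013 UMIs, 8 cells of B0 and 55 of BA10 were left. There Insl3 was at 7835 CPM (7262 to 8441) in B0 and at 5916 CPM (5720 to 6117) in BA10. Prlr was at 747 CPM in B0 and 763 CPM in BA10, and Lhcgr at 125 and 139 CPM, with overlapping intervals. A lower level in BA10 was thus seen only for Insl3 in that set. The size of the difference per cell, and for the receptors its direction, depends on which cells are compared.

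The 7 Leydig markers summed to 8086, 9117, 15474 and 7749 CPM in Leydig-like cells of A0, A10, B0 and BA10, which gives a measure of the genes relative to the enzymes and factors of the same cells. For every 100 marker UMIs there were 13.2 Insl3 UMIs (9.81 to 17.5) in A0, 16.0 (13.3 to 19.3) in A10, 76.7 (76.1 to 77.2) in B0 and 38.2 (37.1 to 39.2) in BA10. Insl3 was thus higher in B0 relative to the steroid enzymes too, and BA10 lay between B0 and the controls. The ratio of Insl3 UMIs to those of each single marker was higher in B0 than in A0 for 7 of 7 markers, a count added after the sums were seen, for example 1.66 against 0.236 for Cyp17a1, 9.08 against 1.70 for Star and 8.86 against 2.95 for Hsd3b1. Cyp17a1 is the enzyme that makes androgen precursors, Star carries cholesterol into mitochondria, and Hsd3b1 acts on a later step of the same pathway.

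The ratios of Lhcgr and Prlr to the markers followed other patterns. For every 100 marker UMIs in Leydig-like cells there were 1.18, 0.241, 1.29 and 0.795 Lhcgr UMIs in A0, A10, B0 and BA10, and the interval of A0 (0.381 to 2.77) held the values of B0 and BA10 and overlapped that of A10. The A10 interval (0.0292 to 0.874), from 2 UMIs, lay below the value of B0. For Prlr there were 8.49, 6.27, 8.63 and 4.32 UMIs, with the lowest value in BA10. Relative to the markers, BA10 was lower than B0 2.01-fold for Insl3 (1.95 to 2.07), 1.62-fold for Lhcgr (1.37 to 1.91) and 2.0-fold for Prlr (1.86 to 2.15).

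Over all cells, the ratio to the markers between B0 and A0 was 6.08 for Insl3 (5.10 to 7.24), 1.63 for Prlr (1.25 to 2.12) and 1.08 for Lhcgr (0.622 to 1.86). Between A10 and A0 it was 1.21 for Insl3, with an interval of 0.963 to 1.52 that includes 1. The 1.53-fold higher Insl3 level of A10 thus came with a higher marker sum. Of the Insl3 UMIs of A0, 60.3% were in germ cell-like cells and 39.7% in the 5 Leydig-like ones. In A10 35.4% were in germ cell-like cells and 64.6% in the 8 Leydig-like ones.

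Prlr and Insl3 were in different proportions in the controls and after busulfan. For every 100 Insl3 UMIs in Leydig-like cells there were 64.3 Prlr UMIs (41.1 to 99.5) in A0, 39.1 (27.8 to 54.3) in A10, 11.3 (11.1 to 11.4) in B0 and 11.3 (10.5 to 12.2) in BA10. A0 and A10 thus had more Prlr per Insl3 than B0 and BA10. Over all cells the proportion was 11.2 (11.1 to 11.4) in B0 and 10.1 (9.52 to 10.8) in BA10, with intervals apart. For Lhcgr the proportion was 1.68 (1.61 to 1.74) in B0 and 2.08 (1.76 to 2.45) in BA10, and the A0 value of 8.93 (2.79 to 22.1) rests on 5 UMIs. These ratios were chosen after the levels were seen.

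**Figure D3:**
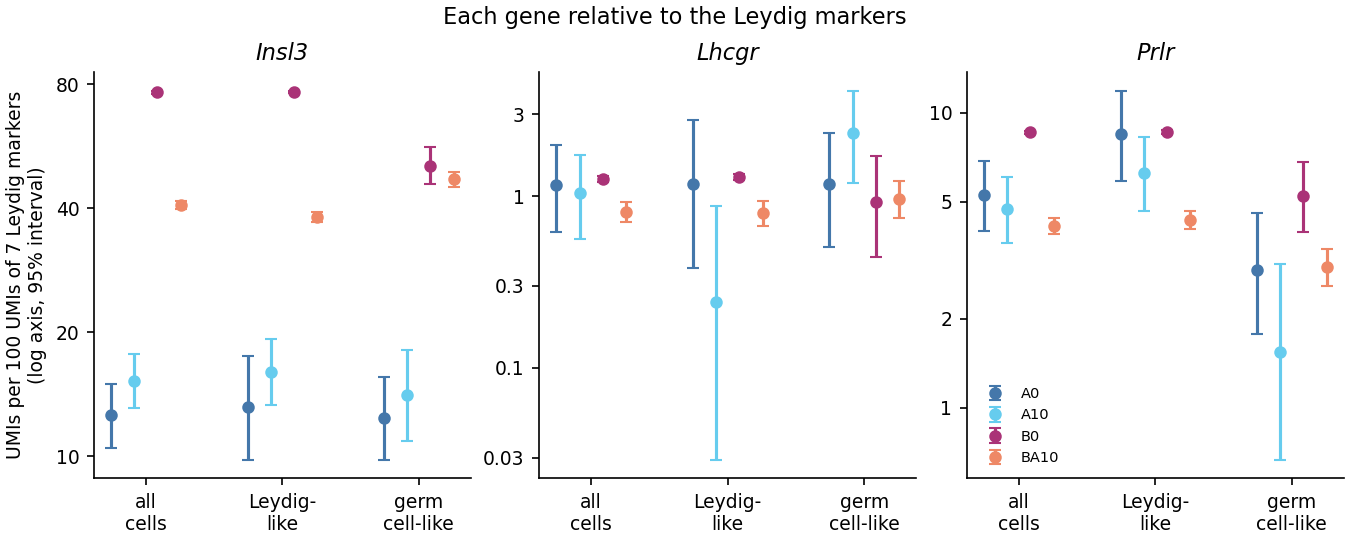
UMIs of each gene for every 100 UMIs of the 7 Leydig markers, in all cells, Leydig-like cells and germ cell-like cells of each library, on log axes whose ranges differ between panels. Points carry 95% intervals that cover counting error only. For Insl3, A0 and A10 lie between 12.4 and 16.0 in every set of cells, B0 lies at 76.5 and 76.7 in all cells and Leydig-like cells, and B0 and BA10 lie at 50.8 and 47.1 in germ cell-like cells.

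Single Leydig-like cells spread widely. Per 10000 UMIs of a cell, Insl3 had a lowest value of 9.69, a median of 117 and a highest of 348 in B0, and 4.50, 35.9 and 131 in BA10. The quartiles were 90.9 and 145 in B0 and 22.1 and 56.5 in BA10, so the middle ranges of all Leydig-like cells did not overlap although their extremes did. In cells of at least 9013 UMIs they did overlap, with quartiles of 36.1 and 62.3 in the 20 cells of B0. The medians of the controls were 10.7 in A0 (range 3.47 to 21.8) and 15.1 in A10 (range 4.32 to 39.1).

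Prlr had a median of 12.8 per 10000 UMIs in Leydig-like cells of B0, with quartiles of 8.64 and 18.1, and a median of 3.96 in those of BA10, with quartiles of 1.87 and 6.61. These middle ranges did not overlap either, but they did in the large cluster, with quartiles of 8.73 and 18.1 in B0 and 5.31 and 10.2 in BA10, and in cells of at least 9013 UMIs, with 2.85 and 6.28 in B0. For Lhcgr the median cell held 1 UMI in both libraries.

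The spread among Leydig-like cells was compared with what counting alone would give. In B0 the variance was 7.98 times that of counting for Insl3, 1.78 times for Prlr and 1.35 times for Lhcgr. In BA10 it was 51.7, 7.10 and 2.72 times. Both Leydig-like clusters are mixed in BA10. Within the large cluster alone it was 6.27 times in B0 and 7.89 times in BA10 for Insl3, and 1.57 and 1.59 times for Prlr.

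Insl3 together with both receptors was read in 52.2% of Leydig-like cells of B0 (1530 of 2929) and in 60.2% of those of BA10, or 35.3% and 14.8% after thinning. In the large cluster of B0, Insl3 was at 11923 CPM in cells with an Lhcgr UMI and at 12129 CPM in cells without one, and Prlr at 1377 and 1329 CPM. For every 100 marker UMIs there were 73.4 and 80.8 Insl3 UMIs. The share of cells without an Lhcgr UMI there, 47.2%, is above the 43.2% that counting alone gives, and the variance was 1.32 times that of counting. Most of that share is still what counting gives, so this split says little about the cells. When the large cluster was cut into 4 sets of cells by UMIs per cell, Insl3 went from 11309 CPM in the shallowest cells to 12330 CPM in the deepest and Prlr from 1541 to 1218 CPM. The level thus went up with depth for Insl3 and down for Prlr.

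**Figure D4:**
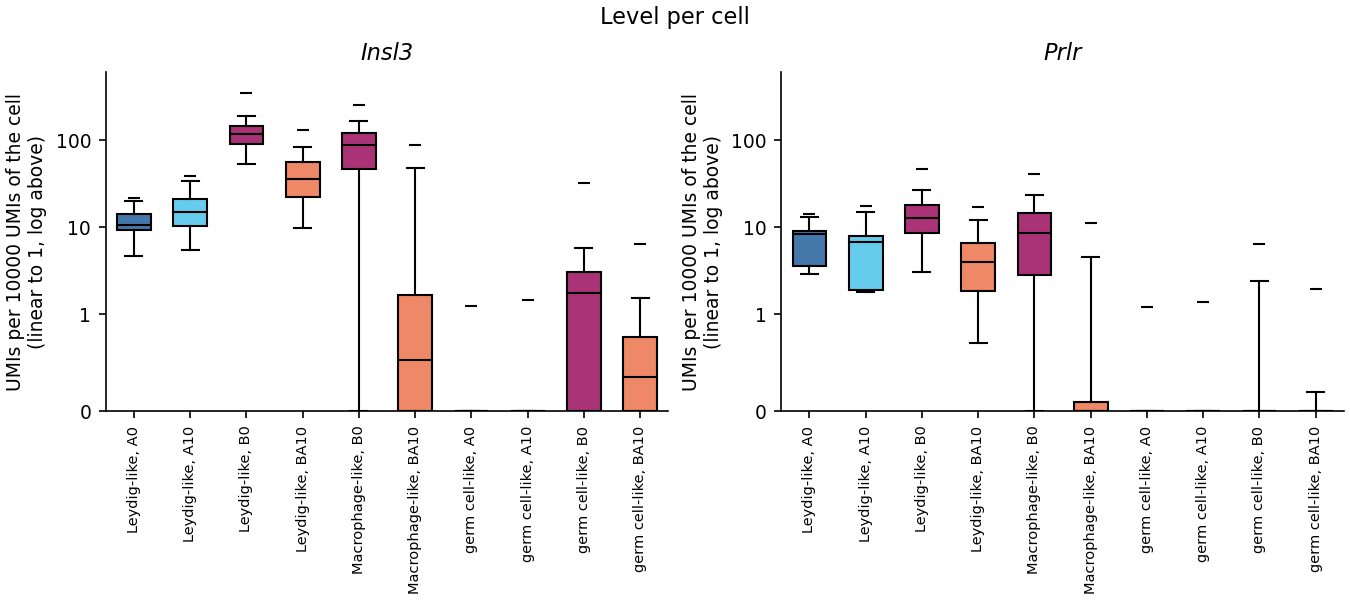
Insl3 and Prlr UMIs per 10000 UMIs of a cell, by class and library, on an axis that is linear to 1 and logarithmic above. Boxes span the quartiles with the median, whiskers reach the 5th and 95th percentiles and dashes mark the highest cell. For Insl3 the box of Leydig-like cells of B0 lies above that of BA10, macrophage-like cells of B0 reach almost the same height, and germ cell-like cells lie far lower.

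Outside Leydig-like cells, Insl3 UMIs were widespread in B0 and BA10. Germ cell-like cells, which are not known to make this hormone, held an Insl3 UMI in 61.8% of cells in B0 and 60.8% in BA10, against 0.967% in A0 and 0.755% in A10. These shares stood at median depths of 4334, 20117, 12685 and 10977 UMIs in that order. Thinned to 2500 UMIs, they were 36.5%, 11.1%, 0.182% and 0.126%. A share of this size in germ cell-like cells is the background against which any other Insl3 share of B0 and BA10 has to be read. The share of the 197 Sertoli-like cells of B0 was 56.3%, or 37.6% after thinning, close to the germ cell-like shares on both scales. Their Insl3 level was higher, at 328 CPM (291 to 368) against 187 CPM (171 to 203) in germ cell-like cells of B0. The variance of Insl3 over that of counting was 14.4 in the Sertoli-like and 3.52 in the germ cell-like cells of B0. The source of the Insl3 UMIs in Sertoli-like cells was not tested. SPG-like and SPC-like cells (spermatogonia and spermatocytes), which make up most of the germ cell-like cells of B0, stood at 58.6% and 64.7%. The receptors were read in fewer germ cell-like cells. No Lhcgr UMI was held by 97.8% of them in B0 and 97.9% in BA10, and no Prlr UMI by 89.0% and 93.3%.

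The level separated Leydig-like from germ cell-like cells where the share did not. The median Insl3 level of germ cell-like cells was 1.75 per 10000 UMIs in B0 and 0.351 in BA10, against 117 and 35.9 in Leydig-like cells. In B0, 2 of 463 germ cell-like cells reached the lowest Leydig-like cell, and in BA10 2 of 2937 did. The variance of Insl3 over that of counting was 1.06 in germ cell-like cells of BA10 and 0.989 in those of A0, close to counting alone, and 3.52 in those of B0.

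In germ cell-like cells, Insl3 UMIs for every 100 marker UMIs were 12.4 (9.81 to 15.6) in A0, 14.1 (10.9 to 18.1) in A10, 50.8 (45.8 to 56.4) in B0 and 47.1 (45.1 to 49.1) in BA10. The values of A0 and A10 overlapped those of Leydig-like cells of the same library. That holds for the marker sum, and single markers of A0 differed in both directions. Insl3 UMIs per Star UMI were 0.773 in germ cell-like against 1.70 in Leydig-like cells, and per Cyp17a1 UMI 0.363 against 0.236. For every 100 marker UMIs of A0, Prlr was at 2.93 (1.78 to 4.56) against 8.49 (5.87 to 11.9), with intervals apart. Lhcgr was at 1.17 against 1.18. In B0 the germ cell-like value was below the Leydig-like 76.7, and in BA10 it was above the Leydig-like 38.2, with intervals apart in both. Whether free RNA in the droplets gave these UMIs was not tested.

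Macrophage-like cells of B0 were the other class with a high level. Their 458 cells had 8075 CPM of Insl3, a UMI in 92.1% of cells and a median of 88.8 per 10000 UMIs, and they carried Leydig markers at 9863 CPM, or 81.9 Insl3 UMIs per 100 marker UMIs. In BA10 the median of 52 macrophage-like cells was 0.524, the quartile above it 1.66 and the highest cell 87.9. The 10 macrophage-like cells of A0 held 0 Insl3 UMIs, which allows a share of cells with a UMI of up to 30% by a limit of 3 counts. Cells that hold UMIs of both types may be doublets, of which only 4 were called in B0, and this was not tested.

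By class, 89.1% of the Insl3 UMIs of B0 were in Leydig-like cells, 9.69% in macrophage-like cells and 0.329% in germ cell-like cells. In BA10, where germ cell-like cells made up most of the library, these were 62.7%, 3.73% and 28.2%. Numbers of cells and levels per class both differed between these libraries, and their parts were not tested. For Prlr, Leydig-like cells held 61.0%, 81.2%, 89.4% and 70.2% of the UMIs in A0, A10, B0 and BA10, and for Lhcgr 38.5%, 14.3%, 91.5% and 65.8%.

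Among the partners of Insl3, the receptor Rxfp2 did not move with its ligand. Rxfp2 was at 3.53 CPM in A0, 3.88 CPM in A10, 3.24 CPM in B0 and 8.10 CPM in BA10. It was read in spermatocyte-like cells, at 6.39, 6.79, 14.2 and 8.93 CPM in the same order, and had 1 UMI in the 2929 Leydig-like cells of B0 but 17 UMIs, or 7.08 CPM, in the 128 of BA10. All 17 were in the 73 cells of the small cluster, and the 55 cells of the large cluster held 0. Insl6, a relaxin-like gene of germ cells, was at 525, 540, 220 and 757 CPM. Of the 5 other relaxin family genes in the table, 0 passed a log2 ratio of 2 in either direction in any comparison, where 21.6% of all genes were higher in B0 than in A0 and 18.2% lower in BA10 than in B0. Rln3, Rxfp3 and Rxfp4 are not rows of the table.

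On the luteinizing hormone side, 4 of 13 other genes were higher in B0 than in A0 by a log2 ratio of 2 or more and 0 were lower, beside 21.6% and 5.30% of all genes, with a median of 0.81 over the list against 0.31 over all genes. They were Nr5a1 (6.63), Gnas, the stimulatory G protein subunit (4.28), Prkacb, a catalytic subunit of protein kinase A (4.04), and Pde8b, which degrades cyclic AMP (3.28). The 4 genes were lower in BA10 than in B0, as were 18.2% of all genes, with log2 ratios of -4.60, -3.49, -3.62 and -3.41 in that order. In cells of at least 9013 UMIs, Nr5a1 was at 0.176, 13.4 and 3.84 CPM in A0, B0 and BA10. In the same order Gnas was at 25.7, 90.1 and 45.6 CPM, Prkacb at 0.598, 3.06 and 1.15 CPM and Pde8b at 0.852, 1.60 and 0.723 CPM. Both gaps were thus smaller among such cells. Nr5a1 alone of the 13 passed the rule in BA10 over A0, with 2.03, where 1.25% of all genes were higher. In B0, Nr5a1 was at 197 CPM in Leydig-like cells and 13.5 CPM in germ cell-like cells, and Gnas at 779 and 246 CPM. Nr5a1 is among the Leydig markers used for naming, so its contrast was in part set by the naming. Lhb, the hormone's own subunit, was at 44.0 CPM in A0 and 13.5 CPM in B0, and its span overlaps Ruvbl2 on the opposite strand by 138 bases.

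On the prolactin side, 4 of 8 other genes were higher in B0 than in A0 and 0 were lower, beside the same 21.6% and 5.30% of all genes, with a median of 1.75 over the list against 0.31 over all genes. They were Socs3, a feedback inhibitor of cytokine receptors (4.23), Jak2 (3.69), Stat5b (3.53) and Stat5a (2.26). In BA10 against B0, Socs3, Stat5b and Jak2 were lower, with -3.76, -3.22 and -3.21, and 0 genes of the list were higher, where 18.2% of all genes were lower and 0.988% higher. In cells of at least 9013 UMIs, Socs3 was at 0.0704, 3.21 and 0.482 CPM in A0, B0 and BA10. In the same order Jak2 was at 0.211, 1.46 and 0.679 CPM and Stat5b at 0.260, 0.729 and 0.570 CPM. Stat5a was at 1.20 CPM in A0 and 2.62 CPM in B0. The gaps were thus smaller among such cells. Levels in Leydig-like against germ cell-like cells of B0 were 19.6 against 11.1 CPM for Jak2, 22.2 against 4.39 CPM for Stat5b and 26.7 against 4.05 CPM for Socs3. Leydig-like cells were not the highest class for all of them, with Jak2 at 32.4 CPM in Sertoli-like cells and Socs3 at 52.1 CPM in macrophage-like cells of B0. Prl, the hormone itself, had 6, 5, 0 and 14 UMIs in A0, A10, B0 and BA10. The upper end of the B0 interval, 0.146 CPM, lay above the A0 level of 0.0398 CPM.

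Of 9 other hormone receptors of testis somatic cells, 6 were higher in B0 than in A0 and 0 were lower, where 21.6% and 5.30% of all genes were, with a median log2 ratio of 2.95 over the list against 0.31 over all genes. The 5 with the largest ratios were Igf1r (6.17), the estrogen receptor Esr1 (5.40), Amhr2 (5.25), Pdgfra (4.40) and the glucocorticoid receptor Nr3c1 (2.95). Over all cells, the log2 ratios of Insl3, Prlr and Lhcgr, with 1 CPM added, were above all of these. In BA10 against B0, 7 of the 9 were lower, against 18.2% of all genes. Esr1 and Igf1r were higher in Leydig-like than in germ cell-like cells of B0, with 108 against 2.02 CPM and 154 against 34.8 CPM. Amhr2, the receptor for anti-Müllerian hormone, was instead highest in Sertoli-like cells, at 1546 CPM against 247 CPM in Leydig-like cells. Amhr2 is among the Sertoli cell markers used for naming, so its contrast was in part set by the naming. Fshr, the receptor for follicle-stimulating hormone in Sertoli cells, was at 27.8 CPM in Sertoli-like and 0.95 CPM in Leydig-like cells.

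**Figure D5:**
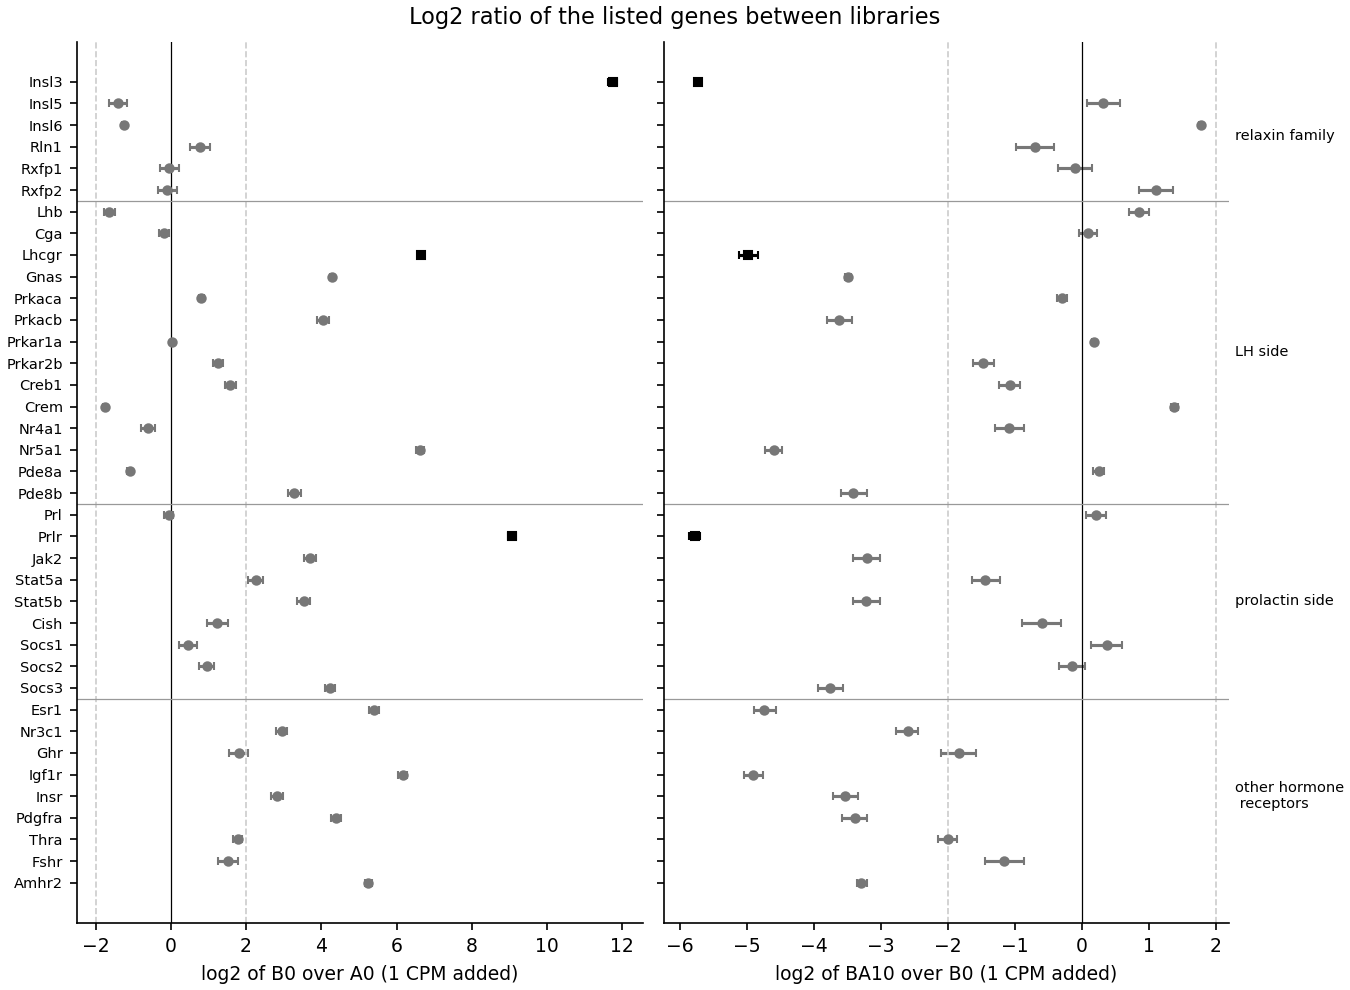
Log2 ratio of each listed gene over all cells of a library, with 1 CPM added, for B0 over A0 (left) and BA10 over B0 (right). The 95% intervals cover counting error only. Black squares are Insl3, Lhcgr and Prlr, grey circles the other genes of the 4 lists, and dashed lines mark a log2 ratio of 2 in either direction. The 3 squares lie at 11.74, 6.65 and 9.07 on the left and at -5.73, -4.98 and -5.78 on the right, beyond every other listed gene in each panel, although the intervals of Lhcgr overlap those of Nr5a1 on the left and of Igf1r and Esr1 on the right, and without the added CPM Esr1 was 46.0-fold lower in BA10 than in B0 against 44.0-fold for Lhcgr.

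The genes whose pattern was most like each member were sought over 46 groups of at least 50 cells, each 1 cluster of 1 library, among 14589 genes. The groups share libraries, and the correlations are descriptions. For Insl3 they were Akr1cl (r = 0.9951), Cyp17a1 (0.9944), Agt (0.9925), Aldh1a1 (0.9925) and Bhmt (0.9920). For Prlr they were Dcxr (0.9934), Ephx1, Aqp2, Lrg1 and Gsta3, and for Lhcgr they were Nxph3 (0.9793), Scd1, Hao2, Gstk1 and Prodh. Of these 15 genes only Cyp17a1 was among the Leydig markers used for naming. Insl3 and Prlr had r = 0.9703 with each other, Lhcgr and Prlr 0.9483, and Insl3 and Lhcgr 0.9070. Many other genes were more alike. Prlr ranked 37 and Lhcgr 359 for Insl3, Insl3 ranked 90 and Lhcgr 267 for Prlr, and Prlr ranked 95 and Insl3 336 for Lhcgr. With finer and coarser clusters the lists of Insl3 and Prlr kept 3 to 5 of their 5 genes, and that of Lhcgr kept 1, so the genes most like this low-count receptor are not settled.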

How the data were processed

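Per the labels and the study's methods, the authors prepared droplet libraries with a 3′ chemistry, processed reads with Cell Ranger 2.2.0 on mm10 and normalized with Seurat. The deposited values are on a natural log scale: the authors divided each UMI count by the cell's total, multiplied by 10000, added 1 and took the log. Whole UMIs were recovered for 100% of values, within 0.001. The methods name a prebuilt mm10 reference, removal of cells with few genes and a fixed number of cells for calling, whereas each library held another number.

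UMI sums of a library or class are given per 1000000 UMIs (CPM), with 1 CPM added for log2 ratios. Intervals are exact 95% Poisson and Clopper-Pearson intervals and cover counting error only. No test was possible with single libraries. Cells were clustered with scanpy 1.11.5 on 2000 variable genes without the 3 members, with 30 components, 15 neighbours, Leiden resolution 1 and no alignment. This gave 26 clusters, named from fixed markers. A cluster stayed unnamed when markers of another class led it, under 3 markers were detected or connective tissue genes led it. The last condition was set after seeing a cluster of 270 cells led by Dcn and Cldn5. Doublets were kept: Scrublet, at an expected 6%, called 721 cells of A0 and 838 cells of A10, but 4 cells of B0 and 48 cells of BA10.

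The members and lists were chosen with earlier results of these data known. Genes named were the members, the fixed lists (those past a log2 ratio of 2 in B0 over A0, up to 5 by size), genes overlapping a member and the 5 genes most like each member among those seen in at least 5% of cells of a group; other listed genes were named after their values were seen. The lists are given without 1 gene, which is not reported here. GENCODE M21 held 17546 of 18419 symbols. The calculation of log2 ratios was tested on simulated data. Python 3.11.15, numpy 2.4.6, scipy 1.17.1 and pandas 2.3.3 were used. Alternatives were other added CPM, cells over a common UMI limit, means over cells, a median of 0, thinning, clustering per library, resolutions 0.5 and 2, and, chosen after seeing the data, the large Leydig-like cluster and single markers.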

Additional observations from a re-analysis of the deposited data

Results flagged for a closer look

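The log2 ratio of A10 over A0 and that of BA10 over B0 had opposite signs for each gene, above 0 without busulfan and below 0 with it, which is why these values are listed. The first minus the second was 6.06 for Insl3, 5.0 for Lhcgr and 5.84 for Prlr. The difference was not tested, as no group has a second library. The A10 over A0 intervals of Lhcgr and Prlr include 0. The sign of that ratio turned for Lhcgr as a mean over cells, to -0.02, and for Prlr in cells over the common UMI limit, to -0.01.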

How the results depend on the processing

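No paired analysis was possible because each group is 1 library, and no library could be left out. No ratio past a log2 of 2 changed sign. With 10 CPM added, B0 over A0 was 9.25, 3.55 and 6.18 for Insl3, Lhcgr and Prlr, BA10 over B0 -5.63, -3.25 and -5.07, and BA10 over A0 3.62, 0.31 and 1.12 (Insl3 A10 over A0, 0.06). With 0.1 CPM, B0 over A0 was 12.65, 9.19 and 10.57, BA10 over A0 6.91, 3.78 and 4.69, BA10 over B0 -5.40 for Lhcgr and -5.88 for Prlr, and A10 over A0 0.57 for Insl3. In cells over the common UMI limit, B0 over A0 was 7.63, 2.85 and 4.74 and BA10 over B0 -1.51, -1.15 and -1.40, and within Leydig-like cells -0.72, -0.32 and -0.48 (Prlr per marker UMI, -0.78). As a mean over cells, B0 over A0 was 6.96 for Lhcgr and 9.23 for Prlr, BA10 over B0 -5.43, -4.81 and -5.42, and BA10 over A0 6.42, 2.15 and 3.81. With the median gene at 0, B0 over A0 was 11.16, 6.07 and 8.49, BA10 over B0 -5.28, -4.53 and -5.34, and BA10 over A0 5.65, 1.31 and 2.92. In the large Leydig-like cluster BA10 over B0 was -1.02, -0.53 and -0.83, and -1.24 for Insl3 per marker UMI, against -0.96 with Cyp17a1 alone. All 3 genes lost the BA10 over B0 log2 ratio of 2 over the common UMI limit. Lhcgr in BA10 over A0 passed a log2 ratio of 2 with 0.1 CPM and as a mean over cells, and Prlr fell under it with 10 CPM; other causes than the added CPM or the cells weighted were not tested. With clusters made per library, Leydig-like cells numbered 0, 0, 2651 and 135. The B0 count includes 55 cells led by Nkg7, Ptprcap and Cxcr6 and 32 cells led by the hemoglobin genes Hbb-bs, Hba-a1 and Hbb-b2, whose name is uncertain.

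Low counts limit Lhcgr most: with 13 and 14 UMIs in A0 and A10, its A10 over A0 ratio has a wide interval. The Leydig-like controls are 13 cells, and B0 cells over the common limit are few. Intervals cover counting error only.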
